A study of Mus musculus with 6 samples.

Results

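The genes described here encode the enzymes that place, copy and remove DNA methylation in mouse embryonic stem cells: Dnmt1, Uhrf1, Uhrf2, Dnmt3a, Dnmt3b, Dnmt3l, Tet1, Tet2, Tet3 and Tdg. They were chosen by symbol, from general knowledge of the pathway and with earlier results of these data known. They are 10 of the 27179 genes in the deposited count table, with 1 row each. All 10 passed the filter on low counts. RNA was sequenced from cells of the E14TG2a background that carry Trim71 with a FLAG tag, in its wild-type (WT) form or with the R783H change, an amino acid substitution in this RNA-binding protein that the series links to hydrocephalus. Both groups share the tag, the background and the culture, which was on gelatin with serum, leukemia inhibitory factor (LIF) and the inhibitors CHIR99021 (of GSK3) and PD0325901 (of MEK). Poly(A) RNA of 3 libraries per group, lettered A, B and C, was compared, and nothing in the labels tells if a letter marks a clone, a culture or a library preparation.

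Methylation of mammalian DNA is found mainly at the cytosine of CpG dinucleotides. Dnmt3a and Dnmt3b methylate unmethylated sites, with Dnmt3l as a catalytically inactive partner. After replication Uhrf1 binds the hemimethylated site and brings Dnmt1, which copies the mark to the new strand. The Tet dioxygenases oxidize methylated cytosine stepwise, using alpha-ketoglutarate as a co-substrate, and the glycosylase Tdg cuts out the most oxidized bases for replacement by base excision repair. Stem cells held in a naive state by inhibitors of MEK and GSK3 are known for low genomic methylation.

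CpG sites are the substrate of these enzymes, so the start regions of 4 of their own genes are shown, with each CpG in capitals. Uhrf1 and Uhrf2 are paralogs of which the second changed more, while Dnmt3l and Tet2 have the fewest and the most CpGs among the 10. Each window runs from 250 bases before to 50 bases after an annotated transcript start, is printed 5′ to 3′ on the gene's strand, and was taken from RefSeq on GRCm38.p6, in which all 10 genes had an entry. Where a gene had several starts, the window with the most CpGs was used.
Uhrf1, chr17:56304063-56304362, plus strand: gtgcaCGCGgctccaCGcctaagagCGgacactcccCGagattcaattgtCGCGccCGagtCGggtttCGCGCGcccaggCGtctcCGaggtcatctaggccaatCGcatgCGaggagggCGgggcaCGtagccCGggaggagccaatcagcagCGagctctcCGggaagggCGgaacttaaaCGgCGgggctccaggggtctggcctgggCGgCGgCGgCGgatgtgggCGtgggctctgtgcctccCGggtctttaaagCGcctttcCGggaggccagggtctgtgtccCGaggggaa
Uhrf2, chr19:30030263-30030562, plus strand: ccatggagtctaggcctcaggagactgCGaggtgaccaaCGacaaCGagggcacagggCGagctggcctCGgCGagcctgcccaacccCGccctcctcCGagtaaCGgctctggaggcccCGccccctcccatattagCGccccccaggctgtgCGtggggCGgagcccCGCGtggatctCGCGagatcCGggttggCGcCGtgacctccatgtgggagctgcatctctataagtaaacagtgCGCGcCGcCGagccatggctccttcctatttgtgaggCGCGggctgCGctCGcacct
Dnmt3l, chr10:78042037-78042336, plus strand: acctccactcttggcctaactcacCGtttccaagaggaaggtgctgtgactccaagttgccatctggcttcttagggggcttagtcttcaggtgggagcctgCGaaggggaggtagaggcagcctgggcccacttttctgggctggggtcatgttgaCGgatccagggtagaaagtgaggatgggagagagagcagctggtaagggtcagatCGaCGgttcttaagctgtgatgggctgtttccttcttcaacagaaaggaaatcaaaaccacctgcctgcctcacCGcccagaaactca
Tet2, chr3:133544341-133544640, minus strand: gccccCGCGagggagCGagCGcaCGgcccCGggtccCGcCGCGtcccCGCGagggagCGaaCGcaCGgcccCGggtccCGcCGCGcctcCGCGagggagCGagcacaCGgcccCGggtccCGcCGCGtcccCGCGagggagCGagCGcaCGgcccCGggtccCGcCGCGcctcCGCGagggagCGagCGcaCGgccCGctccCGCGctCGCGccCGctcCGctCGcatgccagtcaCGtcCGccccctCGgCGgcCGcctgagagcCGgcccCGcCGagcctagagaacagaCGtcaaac

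The motif searched was CG, which reads the same on both strands, and 99.6% of the windows of 10766 tested genes held at least 1. Their median was 22 CpGs, with quartiles of 14 and 30. Uhrf1 had 33 CpGs, above the upper quartile, and Uhrf2 had 28, between the median and the upper quartile. Dnmt3l had 6, and 9.24% of windows had that number or fewer. Tet2 had 57, at the 99.8th percentile, followed by Dnmt3a with 47, Dnmt1 with 33, Dnmt3b with 30, Tdg with 26, Tet3 with 22 and Tet1 with 17. The windows of the genes that fell in R783H (Uhrf1, Uhrf2, Dnmt3b and Dnmt3l) thus spanned 6 to 33 CpGs, and those of the genes that rose (Dnmt1, Tet1 and Tet2) spanned 17 to 57. The methylation of these windows was not measured here.

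In R783H cells 3 of the 10 genes rose (Dnmt1, Tet1 and Tet2), 4 fell (Uhrf1, Uhrf2, Dnmt3b and Dnmt3l), and Dnmt3a, Tet3 and Tdg did not pass the test. With an offset for transcript length and GC content, the rise of Dnmt1 was smaller, that of Tet1 and Tet2 was not called, and Dnmt3a, Tet3 and Tdg were called lower, as described with the trend over length. A gene was called where the adjusted p of edgeR's quasi-likelihood test was under 0.05. Called genes were common in this comparison: 64.5% of the 14199 tested genes passed, and as shares of all tested genes 33.5% were higher and 30.9% lower in R783H, so 7 of 10 is a share near the background. The median log2 fold change of the 10 genes was -0.12, against 0.03 over all tested genes. Fold changes are log2 of R783H over WT, with the standard error (SE) of the fit, and levels are CPM, the count scaled to a common library total, as mean ± SD over 3 libraries. In these bulk samples a change in the share of cells that express a gene and a change in RNA per cell cannot be told apart.

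**Figure D1:**
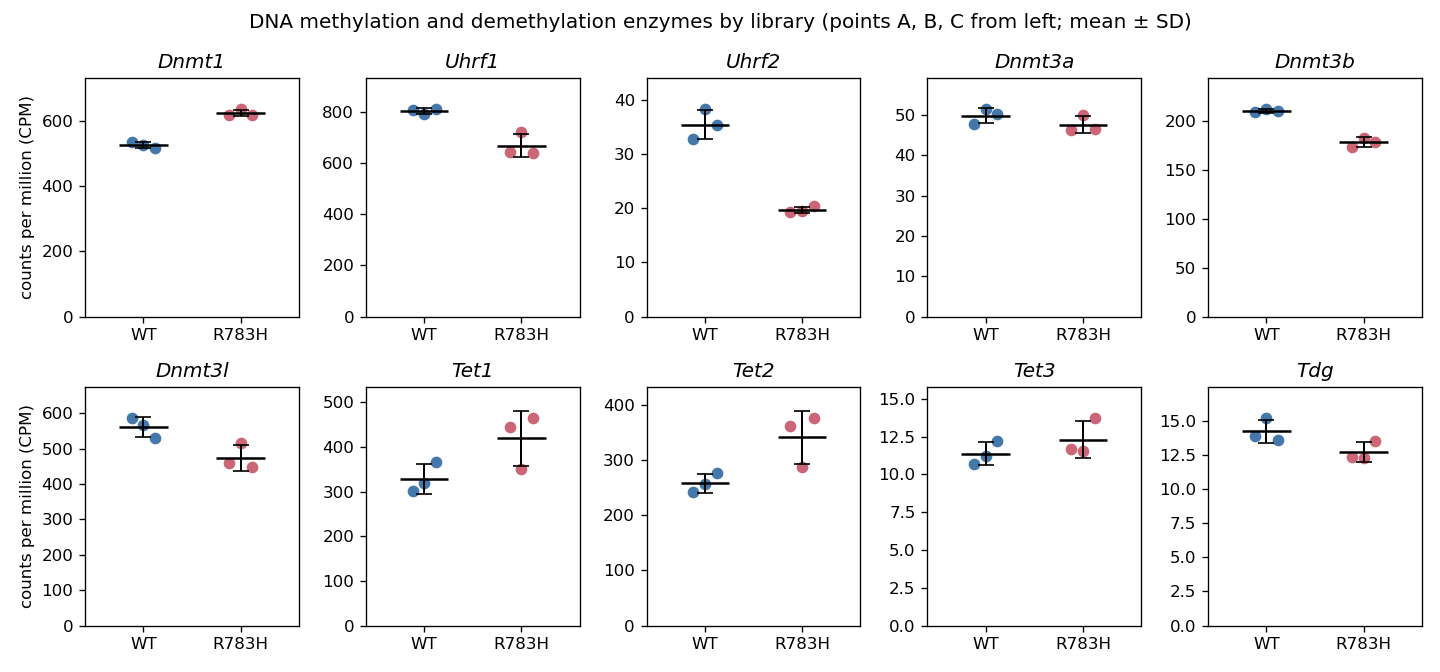
Level in CPM (linear axes that start at 0) of the 10 genes in each library, 1 point per library, with lines at the group mean and error bars of 1 SD over 3 libraries. Uhrf2 shows the widest separation (19.33 to 20.36 CPM in R783H, 32.82 to 38.29 in WT), whereas Dnmt3a, Tet1 and Tet3 overlap between the groups.

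Among Uhrf2, Uhrf1 and Dnmt1, grouped here as the maintenance genes, both Uhrf genes fell while Dnmt1 rose. Uhrf2 (Entrez Gene 109113, chr19:30030430-30093726) encodes the paralog of Uhrf1, which also binds modified CpG sites but does not replace Uhrf1 in maintenance. It was at 19.33, 19.49 and 20.36 CPM in R783H A, B and C and at 32.82, 38.29 and 35.34 CPM in WT A, B and C. Every R783H library lay well below every WT library. The mean was 19.72 ± 0.55 against 35.48 ± 2.73 CPM (SD, n = 3 each), a log2 fold change of -0.85 (SE 0.07, adjusted p = 1.43e-06 in edgeR), or 0.56 times the WT level. It was the largest change of the 10, larger in size than that of 86.7% of tested genes.

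Uhrf1 (Entrez Gene 18140, chr17:56303337-56323486), the reader of hemimethylated CpG, was at 644.6, 722.3 and 642.4 CPM in R783H A, B and C. The WT libraries held 810.9, 793.7 and 811.3 CPM. All R783H libraries were lower than all WT libraries, with R783H B the nearest to them. The means were 669.8 ± 45.5 and 805.3 ± 10 CPM, and the log2 fold change was -0.27 (SE 0.05, adjusted p = 7.28e-04 in edgeR). A stretch of 1590 nt of its transcripts is 98.3% identical to the annotated gene Gm5648, so its counts are uncertain to the extent that such reads were split or dropped.

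Dnmt1 (Entrez Gene 13433, chr9:20907206-20959888), the maintenance methyltransferase itself, went the other way. Its level was 618.1, 634.9 and 618.2 CPM in R783H A, B and C and 536.3, 525.1 and 517.4 CPM in the WT libraries. The groups did not overlap and the libraries of each were close together, with an SD of 9.66 and 9.53 CPM around means of 623.7 and 526.2. The log2 fold change was 0.25 (SE 0.04, adjusted p = 2.01e-04 in edgeR). The length and GC offset brought it to 0.079 (adjusted p = 0.0405), and with that offset and the replicate block the call was lost (adjusted p = 0.0716). Of the maintenance genes' summed level per kb of transcript, Dnmt1 made up 34.3% to 36.3% in R783H libraries and 27.2% to 28% in WT libraries. That sum itself was 298.6 ± 14.3 CPM per kb in R783H and 324.2 ± 2.58 in WT, without overlap.

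Among the de novo genes, Dnmt3b and Dnmt3l fell by similar amounts and Dnmt3a did not pass the test. Dnmt3b (Entrez Gene 13436, chr2:153649411-153687730) is the more abundant of the catalytic pair in these cells. It was at 173.4, 182.9 and 178.9 CPM in R783H A, B and C and at 208.7, 211.8 and 210.2 CPM in WT A, B and C. The groups were clearly apart, with means of 178.4 ± 4.76 and 210.2 ± 1.55 CPM and a log2 fold change of -0.24 (SE 0.04, adjusted p = 3.88e-04 in edgeR).

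Dnmt3l (Entrez Gene 54427, chr10:78042287-78063622), the inactive partner of both de novo enzymes, was at 458.2, 516.6 and 447.7 CPM in R783H. The WT libraries were at 585.1, 566.5 and 531 CPM, all above the R783H libraries, of which B again stood nearest. The means were 474.2 ± 37.1 and 560.9 ± 27.5 CPM, with a log2 fold change of -0.24 (SE 0.06, adjusted p = 0.00379 in edgeR). Its exons share 67 nt with Aire on the opposite strand. Whether counting used strand is not given in the sources used here, so reads there cannot be assigned with certainty.

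Dnmt3a (Entrez Gene 13435, chr12:3801559-3914443) was at 46.15, 50 and 46.45 CPM in R783H and at 47.72, 51.33 and 50.24 CPM in WT. R783H B lay above WT A, so the groups overlapped. The log2 fold change was -0.07 (SE 0.05, adjusted p = 0.3 in edgeR) with means of 47.53 ± 2.14 and 49.77 ± 1.85 CPM. Without R783H B the log2 fold change was -0.13 and passed the test (adjusted p = 0.0314 in edgeR), and the length and GC offset brought it to -0.39 (adjusted p = 1.19e-05). An antisense RNA, Dnmt3aos, shares 133 nt of its exons. Together the de novo genes summed to 306.5 ± 21.4 CPM per kb in R783H and 361.6 ± 14.9 in WT, and Dnmt3l alone made up 84.2% to 85.8% of that sum over the 6 libraries.

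Among the dioxygenases, Tet1 and Tet2 rose and Tet3, which was present at a small fraction of their level, did not pass the test. With an offset for transcript length and GC content, Tet2 was at 0.08 and Tet1 at -0.10, neither called. Tet2 (Entrez Gene 214133, chr3:133463677-133545136) was at 362.3, 287.5 and 376.1 CPM in R783H A, B and C. The WT libraries were at 241.9, 256.7 and 276.2 CPM. R783H B sat only slightly above WT C, and the other R783H libraries lay well above. The log2 fold change was 0.41 (SE 0.09, adjusted p = 0.00187 in edgeR), with means of 342 ± 47.7 and 258.3 ± 17.2 CPM.

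Tet1 (Entrez Gene 52463, chr10:62804570-62887469), whose protein has a CXXC domain that binds unmethylated CpG, was at 445.1, 349.5 and 463.8 CPM in R783H A, B and C. It was at 300.9, 319 and 366.3 CPM in WT A, B and C. The groups overlapped, since R783H B lay below WT C. Of all tested genes, 68.1% did not overlap between the groups, and 7 of the 10 enzyme genes did not. The log2 fold change of Tet1 was 0.35 (SE 0.10, adjusted p = 0.0086 in edgeR) from means of 419.5 ± 61.3 and 328.7 ± 33.8 CPM. The spread of Tet1 and Tet2 over R783H libraries, 14.6% and 13.9% of the mean, exceeded that of the other 8 genes in either group.

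Tet3 (Entrez Gene 194388, chr6:83362373-83457208), best known for its role in the oocyte and zygote, was at 11.68, 11.56 and 13.71 CPM in R783H and at 10.69, 11.21 and 12.19 CPM in WT. The groups overlapped, and the log2 fold change was 0.12 (SE 0.09, adjusted p = 0.293 in edgeR). With the length and GC offset it turned to -0.22 and was called (adjusted p = 0.0245). Summed per kb, the Tet genes stood at 67.58 ± 9.53 CPM per kb in R783H and 52.06 ± 4.28 in WT. The lowest R783H library, at 56.71, was level with the highest WT library, at 56.7.

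Tdg (Entrez Gene 21665, chr10:82629814-82650799), the glycosylase that completes active demethylation, was at 12.34, 12.26 and 13.54 CPM in R783H and at 13.91, 15.17 and 13.59 CPM in WT. R783H C and WT C were almost equal, although the groups did not overlap. The log2 fold change was -0.16 (SE 0.08, adjusted p = 0.0907 in edgeR), and without R783H C it was -0.22, at the threshold (adjusted p = 0.05 in edgeR). Near-identical copies make this value uncertain: 2968 nt of Tdg transcript are 98.7% identical to the pseudogene Tdg-ps, with further stretches of 1193 nt in Gm5597 and 1194 nt in Gm9855. Its exons also share 367 nt with Glt8d2 on the opposite strand.

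The changes of the long transcripts have to be read beside a trend with transcript length that ran through the whole comparison. Over 13067 genes with an annotated length, the median log2 fold change rose from -0.17 in the shortest to 0.31 in the longest of 10 classes of equal size. In the longest class (at least 6792 nt), which holds Tet1 (14369 nt), Tet3 (10904 nt), Dnmt3a (9685 nt) and Tet2 (9179 nt), 59.9% of genes were called higher and 13.2% lower. Tet1 and Tet2 were therefore close to the median of their length class, and Dnmt3a and Tet3 lay below it. Dnmt1 (5870 nt) lay in the next class, whose median was 0.19. Uhrf1, Uhrf2 and Tdg, of 3502 to 3586 nt, lay in a class with a median of -0.01, Dnmt3b (4320 nt) in one at 0.07 and Dnmt3l (1822 nt) in one at -0.15.

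**Figure D2:**
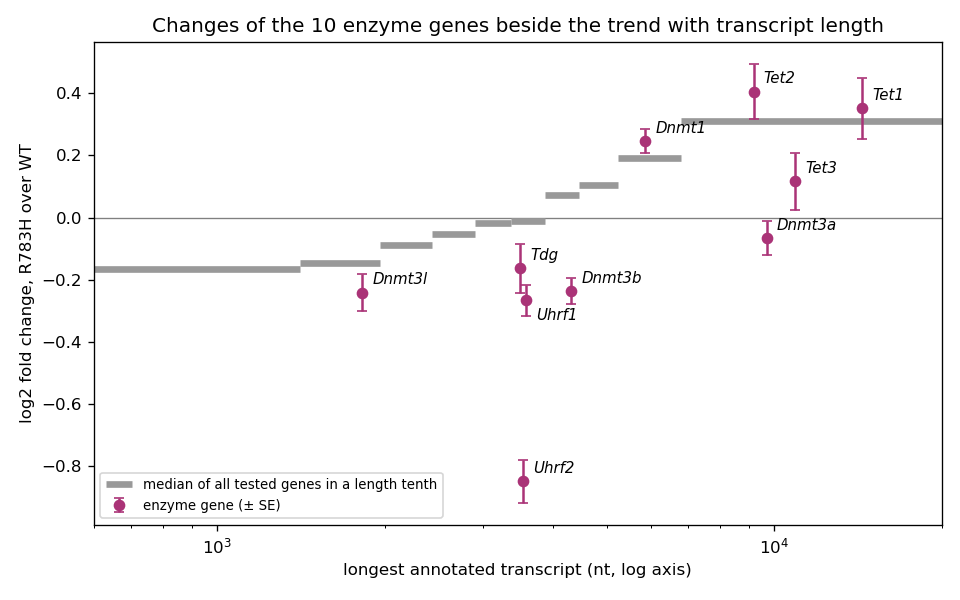
Log2 fold change of the 10 genes (points, error bars ± SE of the fit, 3 libraries per group) against the length of the longest annotated transcript (log axis, nt), with the median of all tested genes in each of 10 length classes (grey bars, clipped at the axis ends). Tet1, Tet2 and Dnmt1 lie slightly above the bar at their length, whereas the other 7 lie below theirs, Uhrf2 the furthest.

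An edgeR fit with a gene-wise offset for transcript length and GC content was run beside the fit without one. With it, Uhrf2 was at -0.91, Dnmt3a at -0.39, Dnmt3b at -0.32, Uhrf1 at -0.30, Tdg and Tet3 at -0.22 and Dnmt3l at -0.17, and all 7 of these were called lower. Of them Dnmt3a, Tet3 and Tdg had not been called without the offset (for Tdg, adjusted p = 0.0138 with it). Dnmt1 stayed higher, at 0.08 (adjusted p = 0.0405). Tet2 and Tet1 were not called (adjusted p = 0.173 and 0.0649). The fall of Uhrf1, Uhrf2, Dnmt3b and Dnmt3l was thus called in both fits, whereas the rise of Tet1 and Tet2 was called in 1 of them.

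**Figure D3:**
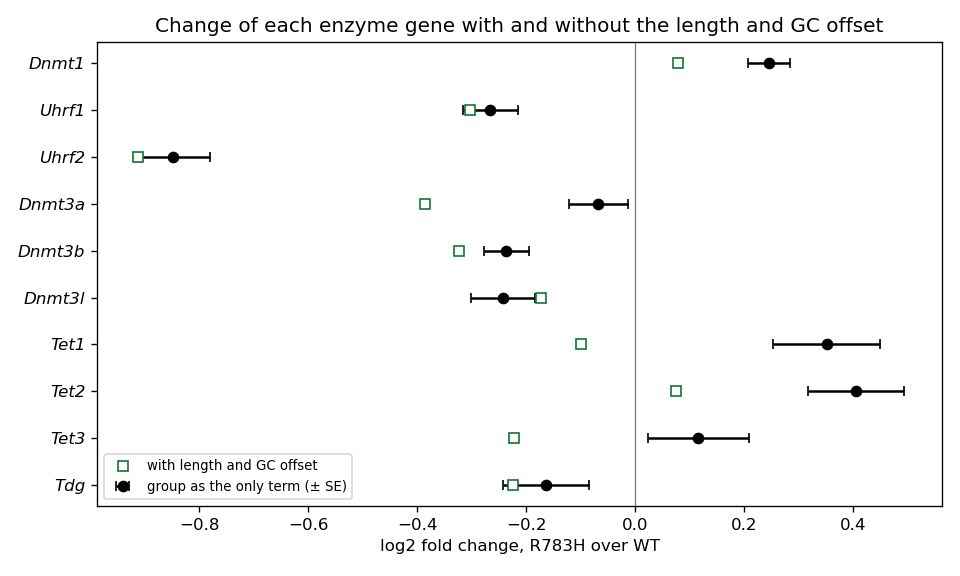
Log2 fold change (R783H over WT) of the 10 genes with group as the sole term of the fit (filled points, error bars ± SE) and with an offset for transcript length and GC content (open squares, no error bar drawn). The squares of the long transcripts Dnmt3a, Tet1, Tet2 and Tet3 lie far to the left of their points, Tet1 going from 0.35 to -0.10, while Uhrf2 lies at -0.85 and -0.91.

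The libraries showed the same trend singly. Relative to each gene's mean over the 6 libraries, the median of the longest class was 0.2, 0.06 and 0.23 on the log2 scale in R783H A, B and C and -0.19, -0.16 and -0.1 in WT A, B and C. R783H B was the R783H library nearest to WT in this measure, as it was in Tet1 and Tet2, and WT C was the WT library nearest to R783H, in which Tet1 and Tet2 were highest of the WT libraries. Without R783H B the log2 fold change of Tet1 was 0.44 and that of Tet2 was 0.49. Without R783H C they were 0.26 and 0.32. Each value passed the test.

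Ratios of a pair of genes within a library do not depend on how libraries are scaled, and 6 such log2 ratios were compared. The Uhrf1 to Uhrf2 ratio was 5.08 ± 0.12 in R783H and 4.51 ± 0.13 in WT, 0.58 higher in R783H. The Dnmt1 to Uhrf1 ratio was -0.10 ± 0.07 in R783H and -0.61 ± 0.03 in WT, 0.51 higher in R783H. For these paralogs and partners the shift was several times the SD in either group. Between Dnmt3a and Dnmt3b it was 0.17, from -2.08 ± 0.04 in WT to -1.91 ± 0.04 in R783H. The ratios were not run with the length and GC offset, under which Dnmt3a fell slightly more than Dnmt3b (-0.39 and -0.32).

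Of the 6 ratios, that of Tet1 to Tet2 shifted least. The Tet1 to Tet2 ratio was 0.29 ± 0.01 in R783H and 0.35 ± 0.05 in WT, a difference of -0.05, although Tet1 and Tet2 alone differed by 0.35 and 0.41. Tet1 to Tet3 differed by 0.23 and Tet3 to Tet2 by -0.29. In all 6 ratios the groups did not overlap, and the exact two-sided permutation test gave p = 0.1 for each (0.1 after adjustment over the 6), the smallest value that 3 against 3 libraries allow.

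**Figure D4:**
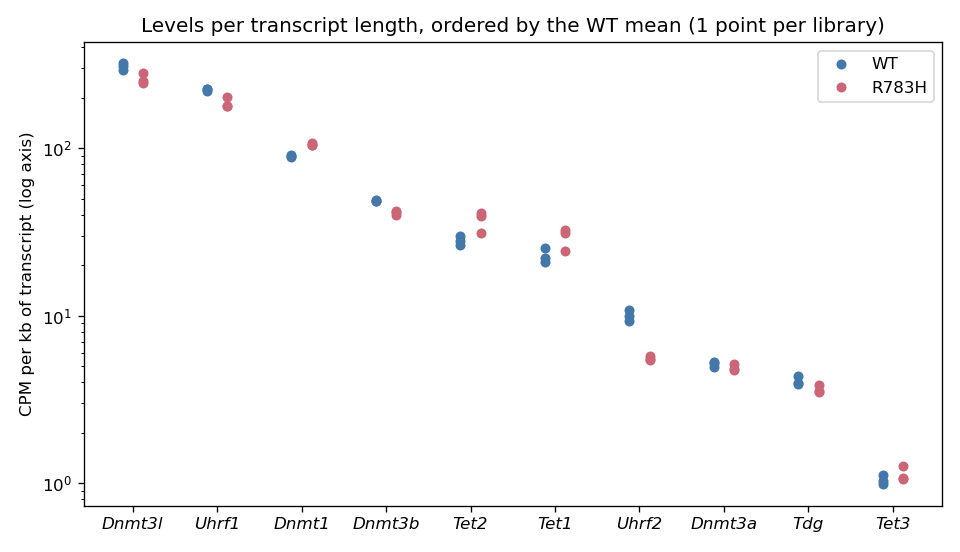
Level per kb of the longest annotated transcript (CPM per kb, log axis) of the 10 genes in each library, 1 point per library, ordered by the WT mean. The levels span from 307.8 CPM per kb for Dnmt3l to 1.04 for Tet3 in WT, and the points of Dnmt3b, Tet2 and Tet1 meet in R783H.

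Compared per kb of transcript, the order of levels in WT was Dnmt3l (307.8 CPM per kb), Uhrf1 (224.6), Dnmt1 (89.65), Dnmt3b (48.66), Tet2 (28.14), Tet1 (22.88), Uhrf2 (10.03), Dnmt3a (5.14), Tdg (4.06) and Tet3 (1.04). No neighbours in this order overlapped over the WT libraries. In R783H the order of the means was the same. There Dnmt3b (40.15 to 42.34 CPM per kb) and Tet2 (31.33 to 40.98) overlapped, as did Tet2 and Tet1 (24.33 to 32.28). Uhrf2 and Dnmt3a, at 10.03 and 5.14 CPM per kb in WT, drew closer in R783H, at 5.58 and 4.91, without overlap.

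The genes whose profile over the 6 libraries was most like that of Uhrf2, by Euclidean distance of log2 CPM centred on each gene's mean, were Gsta3 (distance 0.10), Nrgn (0.11) and Nup62cl (0.12), out of 11679 genes compared. Gsta3, a glutathione transferase, was at 9.7 ± 0.08 CPM in R783H and 17.4 ± 0.65 in WT. All 3 lay between -0.83 and -0.86 in log2 fold change, beside -0.85 for Uhrf2, which follows from their choice by distance over the same libraries.

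Proteins that work with these enzymes were described from lists drawn up with earlier results of these data known, each read against the background of 64.5% called. Beyond the called genes with the largest changes, up to 3 a list, the genes named from the lists were chosen after their values were seen. Partners of maintenance methylation had 6 of 7 genes called, of which 2 rose and 4 fell, and the median of the list was -0.12. Pcna, the sliding clamp that tethers Dnmt1 and other factors at the replication fork, fell from 323.3 ± 2.49 to 204.1 ± 2.33 CPM (log2 fold change -0.66, SE 0.04). Cdca7 and Hells, which form a remodeller that helps methylate nucleosomal DNA, fell by 0.40 and 0.38 on the log2 scale. Usp7, a deubiquitinase that binds Dnmt1 and Uhrf1, fell by 0.12. Smchd1, a chromatin protein of the inactive X chromosome and imprinted clusters, rose by 0.42. Dppa3, which displaces Uhrf1 from chromatin in the oocyte and in naive cells, was at 4.73 ± 0.58 CPM against 2.99 ± 1.43, and its call at a log2 fold change of 0.64 was lost without R783H A or B or WT A or B (0.32 to 0.76), in DESeq2, under RLE scaling, under the stricter filter (10 counts in every library) and in thinned libraries.

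Among 12 genes of imprint protection and histone H3 lysine methylation, 3 rose and 4 fell, and the median was -0.004. Trim28, the corepressor that zinc finger proteins bring to imprinted loci and retroviruses, fell from 3507 ± 245 to 1914 ± 108 CPM, a log2 fold change of -0.87 (SE 0.06). Its partner Setdb1 rose by 0.16, and Zfp57, the zinc finger protein of imprint control regions, was at -0.04 and not called. Cbx1, a heterochromatin protein, fell by 0.57 and the methyltransferase Ehmt2 by 0.46.

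Of 11 partners and regulators of the Tet enzymes, 3 rose and 5 fell, and the median was -0.06. Ogt, which binds Tet proteins and glycosylates them, rose by 0.39 (SE 0.05). Sall1, a zinc finger transcription factor of stem cells, rose by 0.53, whereas Sall4 of the same list was called lower (-0.36). Lin28a, an RNA-binding protein reported to recruit Tet1, fell from 375.5 ± 1.34 to 173.6 ± 2.6 CPM. Prdm14, a repressor of the Dnmt3 genes in naive cells, rose by 0.22 (SE 0.05), and Nanog, which binds Tet1, fell by 0.23.

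Of 7 tested CXXC proteins, which bind unmethylated CpG (Cxxc4 was too low to test), 4 were higher and 2 lower. The methyltransferase Kmt2a rose by 0.67 and Fbxl19 fell by 0.56. Kdm2a, a histone demethylase, rose by 0.34 without the length and GC offset but was at 0.04 and not called with it, and the list's median went from 0.14 to -0.05.

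The list of readers of methylated CpG and their relatives had the highest median of the lists, 0.45, with 7 of 9 genes higher and 1 lower. Zbtb4 rose from 2.34 ± 0.44 to 5.22 ± 0.94 CPM and Zbtb38 from 16.36 ± 1.5 to 30.54 ± 2.07 CPM, both zinc finger repressors that bind methylated DNA. Mbd5 and Mbd6, relatives by family that are not taken here to bind methylated CpG, rose by 0.79 and 0.45. Mbd3, a subunit of the NuRD complex that does not by itself bind methylated CpG strongly, was the 1 that fell, by 0.37. With the length and GC offset 8 of the 9 were called and the median was 0.38.

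In base excision repair, which replaces the base that Tdg removes, 4 of 15 genes rose and 8 fell, and the median was -0.11. Apex1, the endonuclease that cuts the site Tdg leaves, fell from 157.2 ± 0.95 to 87.17 ± 3.99 CPM (log2 fold change -0.85, SE 0.05). Its relative Apex2 fell by 0.68, the polymerase Polb by 0.47, the flap nuclease Fen1 by 0.42 and the ligase Lig3 by 0.30. The glycosylases of the list went both ways. Neil2 rose from 4.8 ± 0.93 to 14.04 ± 1.05 CPM, and Neil1, Neil3 and Mbd4, the last known to act on mismatches at methylated CpG, rose as well. Nthl1 and Ung fell by 0.43 and 0.30, and Smug1 was at 0.03 and not called. Xrcc1 was not called, at -0.02.

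**Figure D5:**
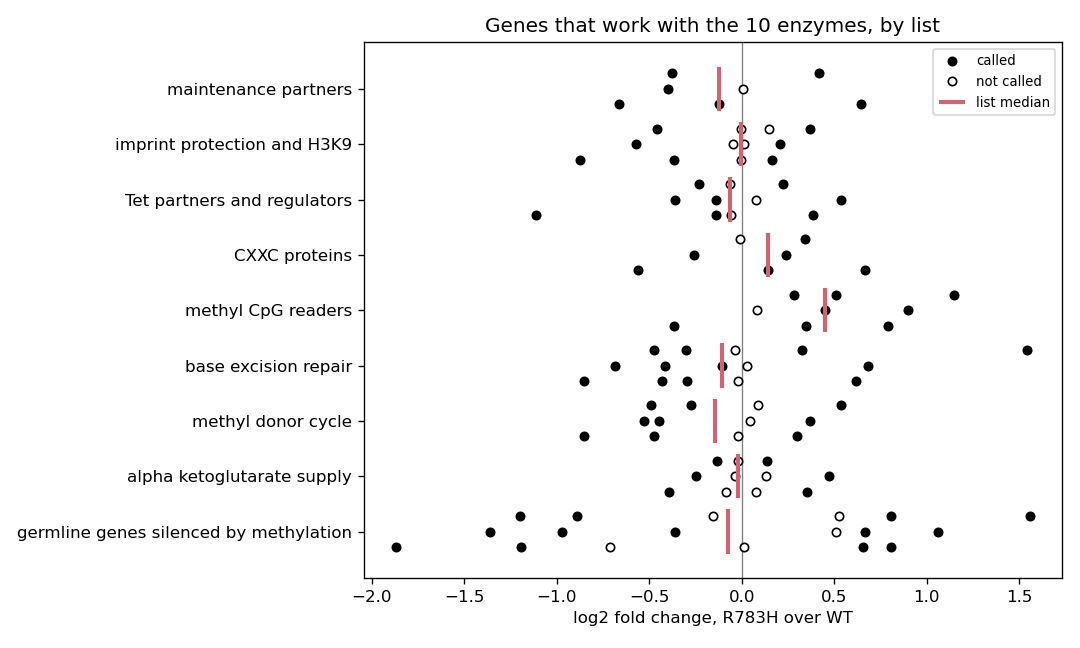
Log2 fold change (R783H over WT) of each tested gene of the 9 lists, with called genes filled, others open and the list's median as a bar (points are offset vertically for legibility). The bar of the methyl CpG readers stands at 0.45, and the other medians lie between -0.15 and 0.14.

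The methyl donor cycle supplies S-adenosylmethionine to the methyltransferases, and 3 of its 12 genes rose and 6 fell, and the median was -0.15. Mat2a and Mat2b, the catalytic and regulatory subunits of the synthase that makes this donor, fell by 0.85 and 0.53, with Mat2a going from 516.5 ± 1.6 to 285.7 ± 8.75 CPM. Ahcy, which clears the product of the reaction, fell by 0.45 and Shmt1 by 0.49. Mtr, the methionine synthase, rose by 0.54 (SE 0.04), and Mthfd2 rose by 0.37.

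Genes listed under the supply of alpha-ketoglutarate, the co-substrate of the Tet enzymes, were split, 3 of 11 higher and 3 lower. Of these 6 calls, 3 were left without WT B and 4 without R783H C, WT A or WT C and in DESeq2. Idh2, the mitochondrial isocitrate dehydrogenase, rose by 0.47 and Idh1, the cytosolic form, fell by 0.25. Tdh, a threonine dehydrogenase abundant in mouse stem cells, fell from 1014 ± 29.1 to 773.2 ± 46.8 CPM. Tdh is among the 3 genes called lower but is not taken here to make alpha-ketoglutarate. D2hgdh was called higher (0.35) but lost the call without R783H B or C, or without WT B or C (0.25 to 0.34), and in DESeq2 and thinned libraries.

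Germline genes whose CpG-rich promoters are known to be silenced by methylation moved both ways: of 18 tested (Sycp2 and Asz1 were too low), 6 were higher, 7 lower and 5 not called. Rpl10l, not called, was at 129.4 ± 2.46 CPM in R783H and 128.5 ± 2.74 in WT, far above the other genes of the list. Whether the reads counted for Rpl10l are its own was not tested. Piwil2 and Mov10l1 fell by 1.87 and 0.97, and Ddx4 fell from 8.45 ± 0.14 to 3.27 ± 0.45 CPM. Mael fell by 1.2, from 1.93 ± 0.17 to 0.84 ± 0.18 CPM, and Tex19.1 fell by 0.89. Sycp1, Sycp3 and Hormad1 rose by 1.06, 0.81 and 0.81, and Dazl rose from 2.95 ± 0.51 to 4.68 ± 0.62 CPM. Sycp3 and Hormad1 were low, at 1.69 ± 0.57 and 1.55 ± 0.11 CPM in R783H against 0.96 ± 0.11 and 0.89 ± 0.13 in WT. The other called genes were Fkbp6 (0.66) and Dpep3 (1.56), both higher, and Brdt (-1.19) and Stk31 (-0.36), both lower. Dpep3 and Brdt were the lowest of the called genes, at 0.50 and 0.21 CPM in R783H and 0.16 and 0.49 in WT. Trdmt1, the relative of the Dnmt genes that methylates tRNA, was at -0.22 (SE 0.10, adjusted p = 0.0803 in edgeR) and not called, but was called without R783H B (-0.31) and with the length and GC offset (-0.32).

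Trim71 itself was at 151.7, 129 and 150.5 CPM in R783H A, B and C and at 130.8, 131.2 and 159.4 CPM in the WT libraries, which overlapped (log2 fold change 0.03, SE 0.08, adjusted p = 0.743 in edgeR). Under the length and GC offset Trim71 was at -0.26 and called lower (adjusted p = 0.00211). A change of 1 residue leaves the transcript in place, so this level does not check the labels. Total counts were 27807385 to 29079670 in R783H and 20894277 to 25174121 in WT, each R783H library deeper than each WT library, and 3 counts, taken as the floor, stood for 0.0998 to 0.148 CPM. The 8 naive stem cell markers, Pou5f1 and Nanog among them, summed to 6790 to 6920 CPM in R783H and 6960 to 7040 in WT. Within that sum 3 markers were called lower, Zfp42 (-0.36), Nanog (-0.23) and Pou5f1 (-0.21). Called higher were 2, Dppa5a (0.30) and Tfcp2l1 (0.17), and Sox2, Esrrb and Klf4 were not called. Markers of fibroblasts summed to at most 10.1 CPM in any library, and 4 of those 8 (Col3a1, Postn, Dcn and Lum) never reached 10 counts. The formative and primed markers summed to 51.7 to 54.3 CPM in R783H against 82.1 to 90 in WT, the trophoblast markers to 45 to 49.9 against 74.8 to 81.9, and the primitive endoderm markers to 10.3 to 11.1 against 5.18 to 7.62. These sums are carried by a few genes, Foxd3 (34.3 against 67.4 CPM) in the formative and primed list, Eomes and Tfap2c in the trophoblast list and Gata4 in the primitive endoderm list. Other markers went the other way: Otx2 rose from 2.77 to 11.39 CPM, Ascl2 rose by 1.10 on the log2 scale, and Sox7, too low to test, had 2 to 4 counts in R783H libraries and 9 to 19 in WT libraries. Markers of the rare cells that resemble the cleavage-stage embryo, Zscan4c among them, summed to 2.43 to 2.56 CPM in R783H and 2 to 2.39 in WT. No gene of these lists was at 0 in all libraries. The part of these states and of depth in the changes of the enzyme genes was not tested, other than by thinning all libraries to the smallest total, which changed none of their calls.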

How the data were processed

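The authors deposited a table of read counts per gene with Entrez Gene identifiers and 1 column per library, in whole numbers and without normalization, per the file headers. Per the submitters' processing notes, CASAVA 1.4, HISAT2, SAMtools and the build mm10 were used. The counting tool, its annotation and its use of strand are not given in the sources used here. Titles gave the group of every library, and each of the 6 columns matched 1 library. Symbols and coordinates came from RefSeq on GRCm38.p6, which named 25275 identifiers, and transcript lengths from the longest GENCODE M21 transcript.

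In R 4.3.3, genes were kept with filterByExpr of edgeR 4.0.16 at its defaults (minimum count 10, minimum total 15), which left 14199 genes and removed 0.0461% to 0.0558% of a library's counts. After TMM scaling, group was the sole term of the quasi-likelihood test, and p-values were adjusted over the whole set of tested genes by Benjamini-Hochberg. The SE is the log2 fold change divided by the square root of F. Since nothing says that libraries came from separate cultures, p-values measure only the spread between these libraries, which may be technical. Gene-pair log2 ratios used a prior count of 0.5 and an exact two-sided permutation test. Near-identical copies were searched with BLAST 2.17.0 (at least 95% identity over 100 nt).

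The steps were tested on simulated data: for R783H against WT, 88 of 100 genes changed 2-fold and 81 of 100 changed 1.5-fold were called among 14199 genes, with 9 calls among unchanged genes. Unlike these data, the simulation left most genes unchanged, gave all genes the same dispersion and held no trend with transcript length. It therefore does not test calls under such a trend. The members, the lists and the rule for named genes were chosen with earlier results of these data known. The rule named Trim71, the 10 enzyme genes, in each list the called genes that changed most (3 at most, with a mean of 50 counts or more in the group where they are higher), and the 3 genes most like the enzyme gene with the largest change. Alternatives were RLE, upper-quartile and library-size scaling, no filter or at least 10 counts in every library, DESeq2 1.42.0, limma 3.58.1, the replicate letter as a block, an offset for length and GC content (mgcv 1.9.3), both together, thinning to the smallest total, and leaving out each library.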

Additional observations from a re-analysis of the deposited data

How the results depend on the processing

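Over 17 alternatives each, Uhrf1, Uhrf2, Dnmt3b and Dnmt3l kept their direction and call, with log2 fold changes from -0.35 to -0.18, -0.91 to -0.77, -0.32 to -0.16 and -0.33 to -0.16. The offset for transcript length and GC content changed the call or direction of several others. With it Dnmt3a was at -0.39, Tet1 at -0.10, Tet2 at 0.075, Tet3 at -0.22 and Tdg at -0.22, and 1 of the 10 genes was called higher and 7 lower in place of 3 and 4. With the replicate block and the offset together Dnmt1 was at 0.079 (adjusted p = 0.0716 in edgeR), Dnmt3a at -0.38, Tet1 at -0.10 (0.0355), Tet2 at 0.073, Tet3 at -0.22 (0.0154) and Tdg at -0.22, with 0 called higher and 8 lower. The offset covers 92% of tested genes. It removes any trend of fold change with length, whatever its source, and that source was not tested. With library size alone Dnmt3a was at 0.014 (adjusted p = 0.836 in edgeR), the median of all tested genes was 0.11 in place of 0.03, and the medians of the lists of imprint protection (0.08), Tet partners (0.02), alpha-ketoglutarate supply (0.06) and germline genes (0.01) turned positive, the cause of which was not tested beyond the shift of all genes. With the offset the medians were -0.26 for maintenance partners, -0.15 for imprint protection, -0.22 for Tet partners, -0.17 for base excision repair, -0.20 for the methyl donor cycle and 0.04 for germline genes. Leaving out 1 library gave -0.13 to -0.045 for Dnmt3a, called without R783H B, and -0.22 to -0.11 for Tdg, called without R783H C. The same gave 0.26 to 0.44 for Tet1 and 0.32 to 0.49 for Tet2, all called, and 8161 (without WT B) to 9882 (without R783H B) called genes in all.

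Trim71 went from 0.03 to -0.26 with the offset, called lower with and without the block (adjusted p = 9.05e-05 and 0.00211 in edgeR), and from -0.022 to 0.13 when 1 library was left out. For the 32 genes that the rule named besides the enzyme genes, Trim71 included, 519 of 544 fits kept direction and call. Of the rest, 16 lost the call, 3 gained it and 6 reversed. Genes named outside the rule are not covered by these counts. The gene-pair ratios changed direction under none of theirs (another prior count, thinning, the replicate block and leaving out each library), which did not include the offset. Whether the replicate letters pair the libraries is not known. Same-lettered libraries deviated from their group means with correlations of -0.07, 0.01 and 0.09 over genes, and those of other letters ran from -0.13 to 0.13. With 3 libraries per group these correlations cannot decide it. With the replicate block alone 9260 genes were called, and none of the 10 enzyme genes changed its call (Dnmt1 at 0.25, Tet1 at 0.35). Genes near 12 CPM, such as Tet3 and Tdg, have the fewest counts of the 10.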

Other observations

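Rbl2, a pocket protein known to repress Dnmt3a and Dnmt3b, belongs to none of the lists and was chosen after its values were seen. Its level was 14.07 ± 0.90 CPM in R783H libraries against 8.30 ± 0.61 in WT libraries. The log2 fold change was 0.76 (SE 0.09, adjusted p = 2e-05 in edgeR). In the same libraries Prdm14, the repressor of the Dnmt3 genes described with the Tet partners, was at 38.33 ± 0.79 and 32.84 ± 1.02 CPM. Of the Dnmt3 genes, Dnmt3b was at 178.4 and 210.2 CPM and Dnmt3l at 474.2 and 560.9 CPM in R783H and WT. Dnmt3a was at 47.53 and 49.77 CPM and was not called without the length and GC offset. With that offset Dnmt3a was called lower (-0.39, adjusted p = 1.19e-05 in edgeR), beside -0.32 for Dnmt3b and -0.17 for Dnmt3l. No alternative fit is given here for Rbl2 or Prdm14. Whether these levels are related was not tested.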
